A study of Homo sapiens with 4 samples.

Results

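The 8 genes described here are the deubiquitinase gene OTUD6B, the ubiquitin ligase adaptor gene SPOPL, the lipid-transfer gene TTPAL, the Golgi transport gene GOLT1B, the ether lipid desaturase gene TMEM189, and the paralogs OTUD6A, SPOP and GOLT1A. They are 8 of the 23228 gene rows in the data. The first 5 were selected on their measured values, since each had about 2-fold higher CPM (read counts scaled to library size, here by the TMM method) with an siRNA against FAT4 at both times. The paralogs were added as controls whatever their values. All 4 libraries came from A673, a human Ewing sarcoma cell line with an EWSR1-FLI1 fusion, grown in DMEM with 10% serum. RNA was taken up in TRIzol 24 h or 48 h after transfection, by RNAiMAX, of a scrambled control siRNA or of an siRNA against FAT4 (siFAT4), and made into stranded mRNA libraries. Each combination of siRNA and time was sequenced as 1 library. There are thus no replicates, and a single cell line and siRNAs of unknown sequence limit all that follows.

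Ubiquitin is attached to proteins by ligases and taken off again by deubiquitinases. OTUD6B and OTUD6A belong to the OTU family of deubiquitinases. SPOP brings substrates to the cullin 3 ligase, SPOPL is a close relative that can pair with it, and SPOP and the deubiquitinase OTUD7A have been tied to the turnover of the EWSR1-FLI1 protein in Ewing sarcoma. GOLT1B and GOLT1A are relatives of yeast Got1, a membrane protein of transport between the endoplasmic reticulum and the Golgi. TTPAL has the CRAL-TRIO lipid-binding domain of the tocopherol transfer protein. TMEM189 makes the vinyl ether bond of plasmalogens, so the group joins ubiquitin, vesicle and lipid genes rather than 1 pathway.

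OTUD6B, GOLT1B and TTPAL share an 8-base word in the annotated 3' UTR, TAGCCTTA, and TMEM189 holds the shorter AGCCTTA. The words are shown because an earlier search of these same counts found them in genes that were higher with the FAT4 siRNA. The windows below are 30 bases of the transcript strand, 5′ to 3′, from GENCODE release 29, with the word in capitals and the place counted from the first base after the stop codon.

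GOLT1B at base 2250: ctaatactacaTAGCCTTAagtgtttctgt

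GOLT1B at base 2531: ttttaaaaaatTAGCCTTAtatgcagtgtt

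TTPAL at base 1729: tgtgaagatttTAGCCTTAgcccaaacatc

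TTPAL at base 692: caaatccataaAGCCTTAgccctggttctc

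TTPAL at base 2710: ggagcacagtgAGCCTTActcagcactggg

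TMEM189 at base 794: aaataatagaaAGCCTTAatatcttttctg

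OTUD6B held TAGCCTTA at bases 529 and 1034 of its 3' UTR of 2227 bases. SPOPL held neither TAGCCTTA nor either of the 7-base words inside it (AGCCTTA and TAGCCTT) in its 4467 bases of 3' UTR or in the 1558 bases before them. SPOP, OTUD6A and GOLT1A held none in the whole transcript. TTPAL also held 1 AGCCTTA in the 1172 bases before its 3' UTR, while OTUD6B, GOLT1B and TMEM189 held no word there. Only the transcript strand was searched, the 7-base words overlap the 8-base one, and a match is a description of these letters, not of a site in use.

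**Figure D1:**
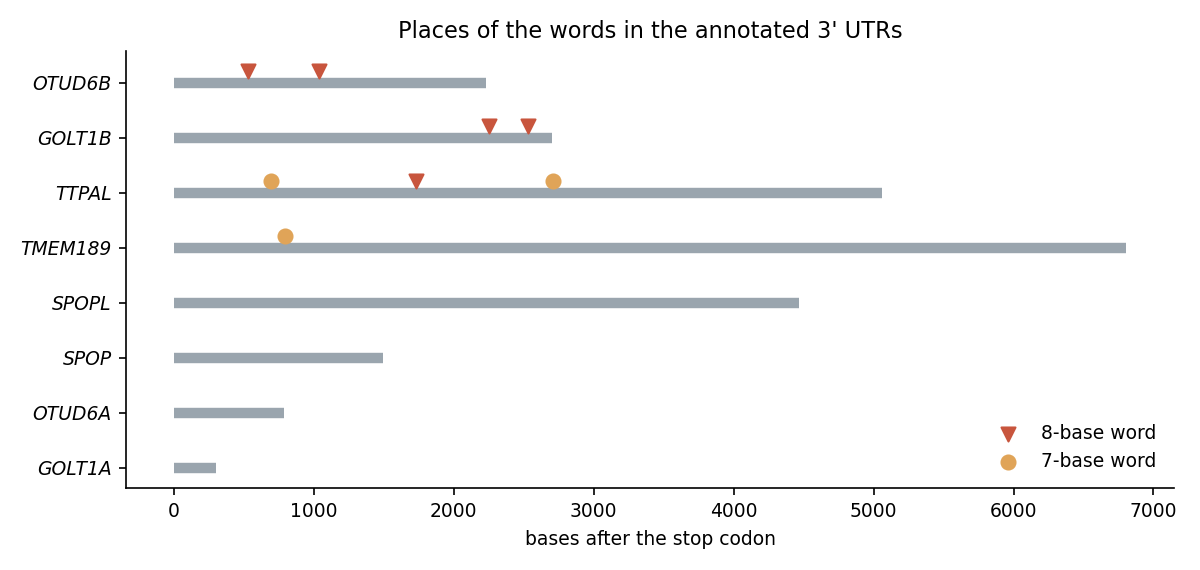
Places of the 8-base word (triangles) and of 7-base words outside it (circles) along the annotated 3' UTR of each gene, in bases after the stop codon, with the grey bar as long as the 3' UTR. OTUD6B and GOLT1B carry the 8-base word at 2 places each, TTPAL at 1, and SPOPL and the 3 paralogs carry none.

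The targeted transcript was lower in both FAT4 siRNA libraries. FAT4, an atypical cadherin gene, was at 165 and 149 CPM in control at 24 h and 48 h and at 71.8 and 60.2 CPM with the FAT4 siRNA. Gene counts summed to between 15196813 and 22625833 per library, and 3 counts, the floor used here, stood for 0.134 to 0.203 CPM. Of 8 Ewing sarcoma markers, 7 were above 1 CPM on average and summed to 3699 to 4457 CPM per library. CD99, a surface marker of this tumour, had 0 counts in all 4, and the cause of that 0 was not tested. The 4 epithelial markers summed to 0.0640 to 0.298 CPM, with CDH1, KRT5 and KRT14 at or under the floor in all libraries. The 5 blood markers summed to 0.348 to 0.541 CPM (CD3E and HBB among those under the floor) and the 4 endothelial ones to 1.08 to 2.06 CPM (VWF under the floor). Fewer cells of a kind and less RNA per cell cannot be told apart in such bulk libraries.

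The first question was how the 2 siRNAs compared for each gene at each time. OTUD6B was at 25.1 CPM in control and 57.8 CPM with the FAT4 siRNA at 24 h, and at 19.4 and 48.2 CPM at 48 h. The ratios were thus 2.30 (exact 95% interval from the counts alone 2.07 to 2.56) and 2.48 (2.19 to 2.81). Both FAT4 siRNA libraries lay above both controls. These values chose the gene and are given with no test, here and for the other 4 picked genes. Its paralog OTUD6A had 0 counts in every library, which allows up to 0.134 CPM in control 24 h and up to 0.203 CPM in siFAT4 24 h.

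SPOPL was at 25.6 CPM in control and 61.0 CPM with the FAT4 siRNA at 24 h, a ratio of 2.38 (interval 2.14 to 2.65). At 48 h it was at 28.8 and 57.6 CPM, a ratio of 2.0 (interval 1.799 to 2.22). Both FAT4 siRNA libraries lay above both controls, an order made likely by how the gene was picked. SPOP was at 68.2 and 72.5 CPM at 24 h and at 72.2 and 76.5 CPM at 48 h, ratios of 1.06 at both times with intervals that include 1 (0.982 to 1.15 and 0.980 to 1.14). The 4 SPOP libraries thus spanned 68.2 to 76.5 CPM. Both FAT4 siRNA libraries lay above both controls here too, but the counting intervals of the library levels overlapped at each time. Of the 10595 genes that averaged 5 CPM or more, 3969 were higher with the FAT4 siRNA at both times, SPOP among them. Per kilobase of transcript, the SPOPL level was 0.186 and 0.197 of the SPOP level in the controls and 0.417 and 0.373 of it with the FAT4 siRNA.

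GOLT1B was at 39.6 CPM in control and 81.9 CPM with the FAT4 siRNA at 24 h, a ratio of 2.07 (interval 1.89 to 2.26). The ratio at 48 h was 2.05 (interval 1.87 to 2.26), from 35.4 to 72.7 CPM. This gene had the least difference between the times among the 5. GOLT1A had 1 count in each control library and 0 in each FAT4 siRNA library, all under the floor, so no fold is given.

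TTPAL was at 17.3 and 37.7 CPM at 24 h, a ratio of 2.18 (interval 1.91 to 2.49), and at 14.6 and 37.3 CPM at 48 h, a ratio of 2.56 (interval 2.22 to 2.95). TMEM189 was at 15.9 and 34.6 CPM at 24 h, a ratio of 2.17 (interval 1.89 to 2.50), and at 13.0 and 34.02 CPM at 48 h, a ratio of 2.61 (interval 2.25 to 3.04). For both genes the FAT4 siRNA libraries differed little from each other and the control at 48 h was the lowest library. TMEM189 has a read-through neighbour, TMEM189-UBE2V1, whose row held 0 counts in all libraries, and UBE2V1 itself, which encodes a ubiquitin-conjugating enzyme variant, held 7, 2, 10 and 11 counts (control 24 h, control 48 h, siFAT4 24 h and siFAT4 48 h). Reads on sequence that these 3 rows share may be absent from the TMEM189 count, in which case its level is understated, and this was not tested.

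**Figure D2:**
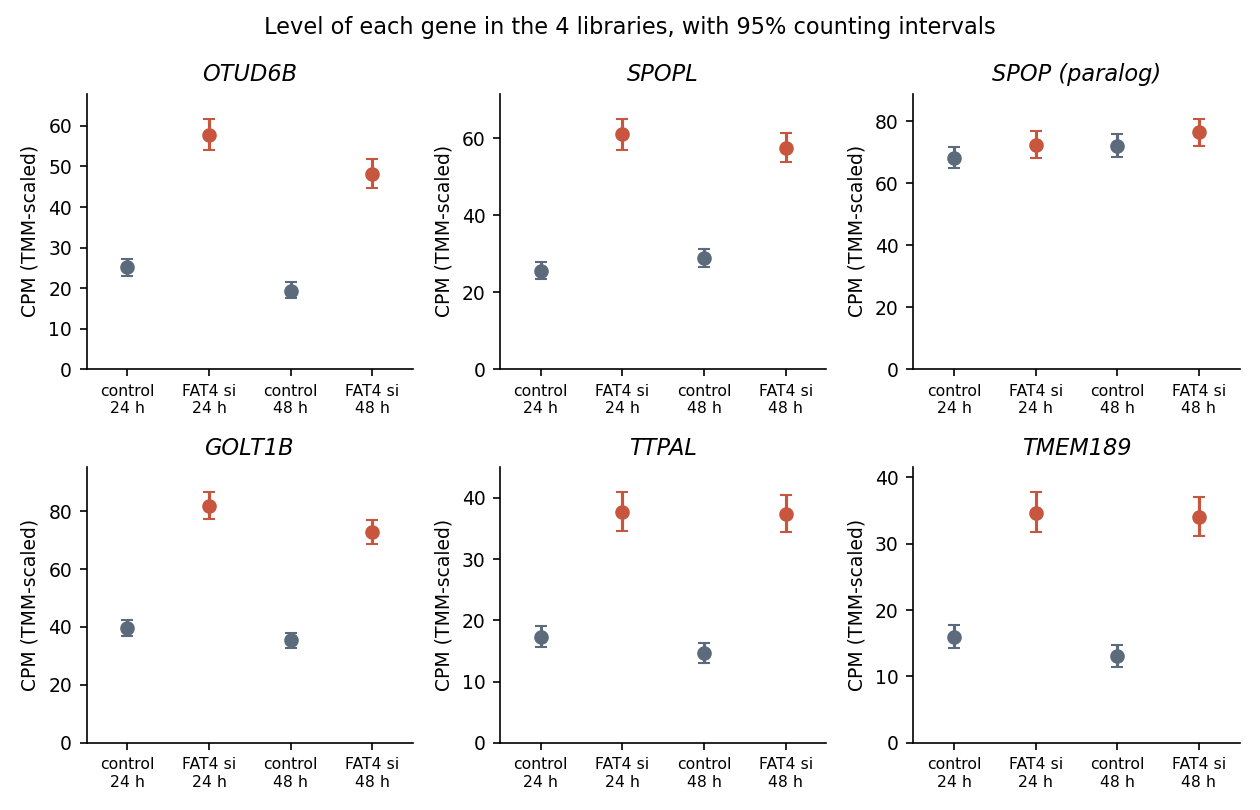
TMM-scaled CPM of the 5 picked genes and of SPOP in each library (grey: control siRNA, red: FAT4 siRNA), with bars for the exact 95% counting interval of that 1 library. The red points lie above the grey ones in every panel, clear of the grey bars for the 5 genes, which were picked for higher values with the FAT4 siRNA. For SPOP, whose libraries span 68.2 to 76.5 CPM, the bars overlap at each time.

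On the log2(CPM + 1) scale, 10 of the 10595 genes that averaged 5 CPM or more were 2-fold higher or beyond with the FAT4 siRNA at both times, which is 0.0944%. They include OTUD6B, GOLT1B, TTPAL and TMEM189. In the order of the smaller of both log2 ratios, OTUD6B came at place 4, TTPAL at 6, TMEM189 at 7, GOLT1B at 10 and SPOPL at 12 of 3969 genes higher at both times. SPOPL, the lowest of the 5, had a log2 ratio of 1.22 on the first day and 0.98 on the second. The other genes nearest before it were ANXA1 at place 9 (smaller log2 ratio 1.03) and LAMP2 at place 11 (0.98), with GOLT1B between them, and just after it came E2F7 (0.97) and MRGPRF (0.96). SPOP came at place 2817 of the same order. These places follow from how the genes were picked and support nothing by themselves.

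**Figure D3:**
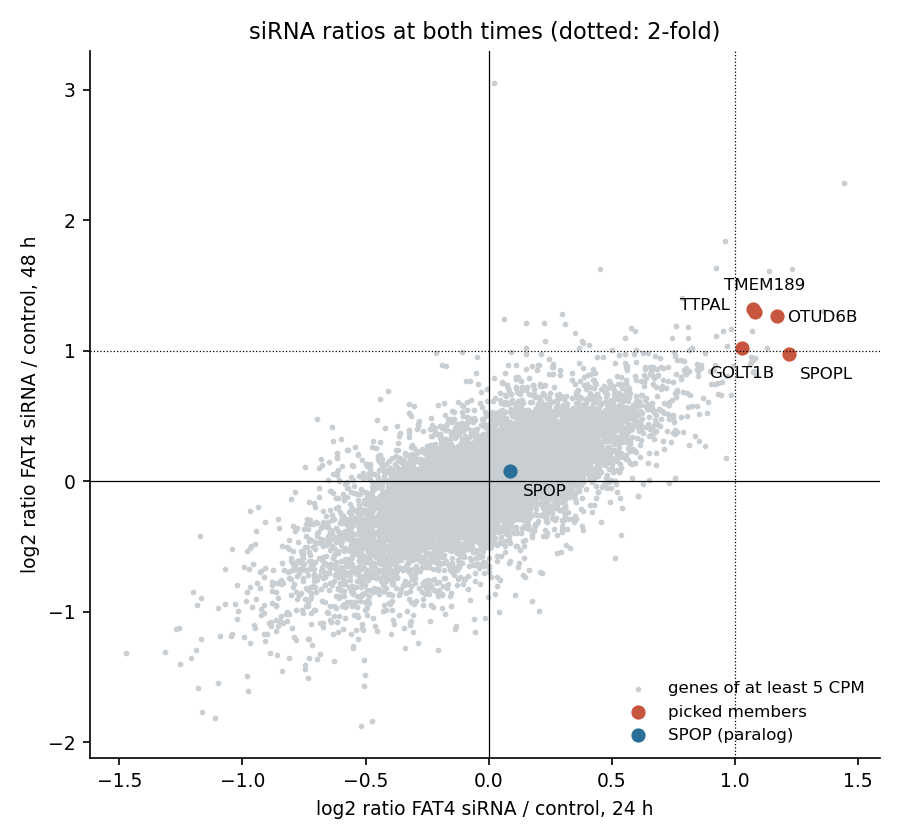
Log2 ratio of FAT4 siRNA to control, from log2(CPM + 1), at 24 h (horizontal axis) and 48 h (vertical axis) for 10595 genes of at least 5 CPM. The 5 picked genes (red) lie near or past the dotted lines of 2-fold at both times, and SPOP (blue) lies at 0.09 and 0.08.

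The log2 ratio at 48 h minus that at 24 h was 0.25 for TMEM189, 0.21 for TTPAL, 0.10 for OTUD6B, -0.01 for GOLT1B and -0.25 for SPOPL. The counting intervals of the ratios at 24 h and 48 h overlapped for each of the 5 genes, which is no test of the difference. Since a term for this difference would use up all 4 libraries, it was not tested.

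The order of the levels per kilobase of transcript, over all 4 libraries, put SPOP first at a mean of 24.2 CPM per kilobase. GOLT1B followed at 17.8, OTUD6B at 11.4, SPOPL at 7.17, TTPAL at 4.29 and TMEM189 at 3.16 CPM per kilobase. In the siFAT4 24 h library SPOP at 24.3 and GOLT1B at 25.4 CPM per kilobase were nearly level, whereas in control 24 h they were at 22.9 and 12.3. TTPAL (2.34 to 6.05) and TMEM189 (1.69 to 4.49) overlapped in their ranges over the libraries, as did OTUD6B (5.88 to 17.5) and SPOPL (4.24 to 10.1). OTUD6A and GOLT1A stayed at or near 0.

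The rule did not use time, so the change from 24 h to 48 h over both siRNAs could be tested. OTUD6B fell by 0.32 on the log2 scale (SE 0.122, edgeR adjusted p = 0.0396), and was lower at 48 h under both siRNAs. It was the 1 gene called among the 6 members tested, while 26.6% of all 13712 genes tested were called in this comparison. Its call was lost with DESeq2 (adjusted p = 0.240) and in a fit without the siRNA term (adjusted p = 0.826), and the adjusted p lay between 0.00995 and 0.826 over the alternatives. The log2 change was -0.17 for GOLT1B (SE 0.108, edgeR adjusted p = 0.259), -0.15 for TMEM189 (SE 0.136), -0.12 for TTPAL (SE 0.133), 0.08 for SPOP (SE 0.101) and 0.04 for SPOPL (SE 0.117). With offsets for GC content and length, GOLT1B fell by 0.28 and was called (edgeR adjusted p = 0.0287, range 0.0287 to 0.892 over the alternatives). In the controls alone the log2 change from 24 h to 48 h was -0.36 for OTUD6B, -0.27 for TMEM189, -0.23 for TTPAL, -0.16 for GOLT1B and 0.16 for SPOPL.

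The picked genes share long annotated 3' UTRs, each read from a single GENCODE transcript per gene. Whether these transcripts and their 3' ends are the ones used in A673 was not tested. Their 3' UTRs measured 2227 to 6804 bases, against a median of 1194 bases over 10170 genes of at least 5 CPM, of which 29.2% were as long as that of OTUD6B or longer. The 3' UTRs of SPOP, OTUD6A and GOLT1A measured 1494, 788 and 298 bases. Transcript GC content split the group. It was 33.0% in GOLT1B, 34.4% in OTUD6B and 35.7% in SPOPL, far below the median of 48.8% over the tested genes, but 45.8% in TTPAL and 49.9% in TMEM189. SPOP lay at 45.5%.

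The siRNA ratio moved with base composition over all genes, and the values beside each member are these. The median log2 ratio of the 44 genes within 1 percentage point of the GC content of GOLT1B was 0.37 at 24 h and 0.26 at 48 h. Around OTUD6B it was 0.30 and 0.13 (152 genes), and around SPOPL 0.26 and 0.12 (295 genes). Around TTPAL it was 0.06 and 0.05, and around TMEM189 -0.01 and 0.02. With GC and length offsets the log2 ratios at 24 h and 48 h were 0.73 and 0.83 for GOLT1B, 0.89 and 1.11 for OTUD6B, and 1.01 and 0.90 for SPOPL, all lower than without. They were 1.07 and 1.34 for TTPAL and 1.16 and 1.41 for TMEM189, little changed or higher. The part of base composition in these ratios was not tested further.

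The 8-base word was present in 352 of 17871 annotated 3' UTRs of at least 50 bases, or 1.97%, and either 7-base word in 14.7%. Long 3' UTRs hold any word more often. Among 3' UTRs within 20% of the length of each member, TAGCCTTA was present in 3.04% around OTUD6B, 4.35% around GOLT1B, 5.18% around TTPAL, 8.73% around TMEM189 and 4.43% around SPOPL. Either 7-base word was present in 55.1% of 3' UTRs within 20% of the length of that of TMEM189, which holds a single AGCCTTA. No share by length was taken for AGCCTTA alone, which was present in 8.81% of all 17871 3' UTRs.

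Over all genes of at least 5 CPM with the picked ones left out, 235 with 1 copy of the 8-base word had median log2 ratios of 0.15 (24 h) and 0.13 (48 h). For the 9 such genes with 2 or more copies it was 0.31 and 0.13, so at 48 h the median was no higher than with 1 copy. The median was 0.08 and 0.05 for 1502 genes with a 7-base word only, and -0.03 and -0.01 for 8291 genes with none. Median GC content fell from 49.5% in the genes with none to 42.0% in those with 1 copy of the 8-base word, and median 3' UTR length rose from 975 to 3056 bases. Besides OTUD6B and GOLT1B, 9 genes of at least 5 CPM held the 8-base word at 2 or more places. Among these the deubiquitinase gene OTUD4 had the highest log2 ratio at each time, 0.81 and 0.85, and TRIM44 had 0.05 and -0.05. Among the genes at least 2-fold higher at both times, OTUD6B, GOLT1B and TTPAL held the 8-base word, TMEM189, ANXA1 and POLR3G a 7-base word, and CTGF, IL6R and TNFRSF12A none. The words were found on these same ratios, so none of these values is independent support. None of 2370 mature human miRNAs in the RefSeq table had bases 2 to 8 complementary to either 7-base word. The siRNA sequences were not given in the sources used here, and the part of the words in the ratios was not tested. No library without siRNA was used here, so a rise with the FAT4 siRNA and a fall with the control siRNA cannot be told apart for any of these genes.

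**Figure D4:**
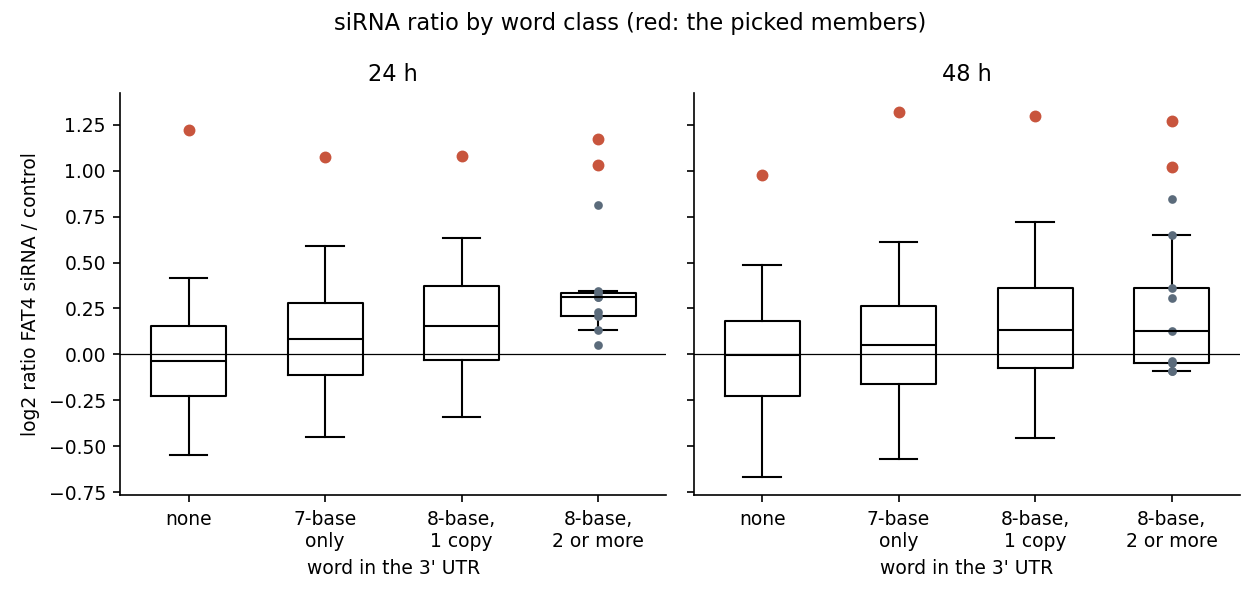
Log2 ratio of FAT4 siRNA to control at 24 h and 48 h for genes of at least 5 CPM, by the words in their 3' UTR. Boxes show the quartiles and median with whiskers at the 5th and 95th percentiles, the picked genes left out (grey points: the 9 genes of the last class). Red points are the picked genes, and the box medians at 24 h go from -0.03 with no word to 0.15 with 1 copy of the 8-base word and 0.31 with 2 or more, while both of the latter classes have 0.13 at 48 h.

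The genes next to the members by annotation order mostly had smaller ratios. Between the expressed neighbours of GOLT1B, the helicase gene RECQL had log2 ratios of 0.17 and 0.05 and the lactate dehydrogenase gene LDHB 0.03 and -0.03. Beside TTPAL, C20orf111 had 0.19 and 0.32 and SERINC3 0.18 and 0.22. Beside TMEM189, RNF114 had -0.17 and 0.05, and the transcription factor gene CEBPB fell, with -0.84 and -0.79 (edgeR adjusted p = 5.84e-15 over both times). Beside SPOPL, the aspartyl-tRNA synthetase gene DARS had 0.39 and 0.28 and NXPH2 0.31 and -0.11. DARS was called (edgeR adjusted p = 0.00287) but not with GC and length offsets (adjusted p = 0.0509). Beside OTUD6B, TMEM64 rose with log2 ratios of 0.92 and 1.11 (edgeR adjusted p = 3.69e-07) at a mean of 7.0 CPM, and FAM92A1 had 0.15 and -0.09. Without the pseudocount the ratios of TMEM64 were 2.10 and 2.44, against 2.30 and 2.48 for OTUD6B. TMEM64 held neither word in its 3' UTR.

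The genes most like the 5 picked ones in profile were sought by the Euclidean distance between centred log2(CPM + 1) values over the 4 libraries. These profiles hold the siRNA ratios by which the 5 genes were picked. Near genes are thus others that were higher with the FAT4 siRNA, and the distances support nothing by themselves. Nearest to the mean profile was POLR3G, a subunit of RNA polymerase III, at a distance of 0.0562. E2F7, ANXA1, MTMR6 and MBNL1 followed at 0.151 to 0.179. The picked genes themselves lay 0.0905 (TTPAL) to 0.242 (SPOPL) from their own mean. The nearest gene to SPOPL was ZNF100 (0.141), to GOLT1B E2F7 (0.0490), and to both TTPAL and TMEM189 POLR3G (0.121 and 0.126). POLR3G was at 14.4 and 31.3 CPM at 24 h and at 12.2 and 28.3 CPM at 48 h, against 15.9 and 34.6, and 13.0 and 34.02 CPM of TMEM189.

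The pathways around the members were read from 12 lists of related genes, with the members left out, in an edgeR fit of the siRNA effect over both times. Of 369 different genes tested, 63 rose and 49 fell, while over all 13712 genes 11.9% were called higher and 14.1% lower. The median log2 change of the lists' genes was -0.01, as over all genes. With GC and length offsets 41 rose and 46 fell, so the share of higher genes among those called went from 56.2% to 47.1%. Over all genes that share went the other way, from 45.7% to 50.7%. With the offsets, 1325 of all 13078 genes tested were called higher and 1290 lower. DESeq2 called 26 list genes higher and 24 lower, against 600 higher and 644 lower of all 13712 genes. Without the time term edgeR called 0 genes of the lists and 0 of all genes, with 1706 of all genes at an unadjusted p under 0.05, so every siRNA call named here ends under that setting.

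Among the other OTU family deubiquitinases 4 of 13 rose and 2 fell. OTUD4 rose by 0.84 (SE 0.101, edgeR adjusted p = 1.54e-14), with 58.9 and 52.5 CPM in the controls against 104 and 95.1 CPM. YOD1, a deubiquitinase of protein quality control at the endoplasmic reticulum, rose by 0.61 (edgeR adjusted p = 2.07e-06) and held the 8-base word at 1 place. OTUD7A had a mean of 0.181 CPM and was not tested. Of 65 tested members of the other deubiquitinase families 12 rose and 6 fell. The ISG15 protease gene USP18 fell by 0.94 and USP44 by 0.82, each lower at both times.

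Of 21 genes of the cullin 3 core, neddylation and the COP9 signalosome 6 rose and 2 fell, and 2 rose and 3 fell with GC and length offsets. CUL3 itself had a log2 change of -0.06 (edgeR adjusted p = 0.711), with 141 to 150 CPM in the 4 libraries. The signalosome subunit COPS8 fell by 0.52. The NEDD8 protease gene SENP8 rose by 0.78 but did not pass with GC and length offsets (adjusted p = 0.0535), and DESeq2 gave it no adjusted p. Of 59 BTB adaptors, the family role of SPOP and SPOPL, 7 rose and 9 fell. KCTD17 fell by 1.09 (SE 0.139, edgeR adjusted p = 6.35e-13) and BTBD9 by 0.77, the latter not called by DESeq2 (adjusted p = 0.0874). Of 24 genes whose proteins are known SPOP substrates 1 rose and 2 fell, and with the offsets 0 did. GLI2 fell by 0.57 and FASN by 0.39, neither called with the offsets (adjusted p = 0.0832 and 0.586), and GLI2 not by DESeq2 (adjusted p = 0.0806). EWSR1 had a log2 change of 0.09 (edgeR adjusted p = 0.484), in a row that does not set the fusion transcript apart. These are RNA levels, and the level or turnover of the proteins was not measured here.

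Of 35 ubiquitin-activating and ubiquitin-conjugating enzymes 4 rose and 5 fell, and 1 and 7 with the offsets. UBE2S, which extends ubiquitin chains for the anaphase-promoting complex, fell by 0.83, with 69.99 and 44.0 CPM in the controls against 36.3 and 26.9 CPM. UBE2N had a log2 change of -0.19 (edgeR adjusted p = 0.116), and was called with the offsets (-0.25, adjusted p = 0.0322). The UBE2V1 row passed narrowly (edgeR adjusted p = 0.0497) on its 2 to 11 counts, and not without the filter on low counts (adjusted p = 0.0983) or with the offsets (adjusted p = 0.0888). DESeq2 gave it no adjusted p. Its ratio at 48 h was 7.08 with a counting interval of 1.54 to 65.7.

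Around GOLT1B, 8 of 34 genes of the COPII coat and of exit from the endoplasmic reticulum rose and 2 fell, and 4 and 2 with the offsets. The COPII GTPase gene SAR1B rose by 0.54, while MCFD2, the partner of the cargo receptor LMAN1, fell by 0.84 (SE 0.0946, edgeR adjusted p = 1.25e-16). Of 31 genes of the COPI coat, ARF proteins and KDEL receptors 5 rose and 9 fell. The coat subunit COPB1 fell by 0.64 and ARFGAP2 by 0.62, each lower at both times. Of 22 Golgi SNARE genes 3 rose and 1 fell. NAPG rose by 0.33 and VTI1B fell by 0.34, neither called by DESeq2 (adjusted p = 0.104 and 0.146) and NAPG not with the offsets (adjusted p = 0.162). DESeq2 called 0 genes of this SNARE list, against 600 higher and 644 lower of all 13712 genes.

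Of 34 SFT2, YIP and Golgi scaffold genes 9 rose and 2 fell. The golgin genes GOLGA4 and GCC2 rose by 0.55 (edgeR adjusted p = 6.05e-08) and 0.61 (adjusted p = 5.86e-06). In yeast Sft2 works alongside Got1, and of its 3 human relatives SFT2D3 rose by 0.54 (edgeR adjusted p = 0.00160), a call lost with DESeq2 (adjusted p = 0.0859). SFT2D1 and SFT2D2 had log2 changes of 0.02 and 0.06.

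Around TTPAL, 2 of 15 tested CRAL-TRIO domain genes rose and 6 fell, with a median log2 change of -0.27. MCF2L and MCF2, guanine nucleotide exchange factors that carry this domain, fell by 1.43 (SE 0.187, edgeR adjusted p = 2.17e-12) and 0.74, the latter with no adjusted p from DESeq2. TTPA, the tocopherol transfer protein gene itself, had a mean of 0.0463 CPM and was not tested. Around TMEM189, 2 of 16 genes of ether lipid synthesis rose and 3 fell. GNPAT, the first enzyme of the pathway, fell by 0.31 (edgeR adjusted p = 0.00818), a call lost with DESeq2 (adjusted p = 0.126). AGPS, the next enzyme, had a log2 change of -0.00343 (edgeR adjusted p = 0.984). The fatty acyl-CoA reductase gene FAR1 had 0.11 over both times, with 0.30 at 24 h and -0.10 at 48 h. The peroxisome import gene PEX19 rose by 0.43 and the phosphotransferase gene CEPT1 by 0.46, the latter not called by DESeq2 (adjusted p = 0.0591) or with the offsets (adjusted p = 0.0612).

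**Figure D5:**
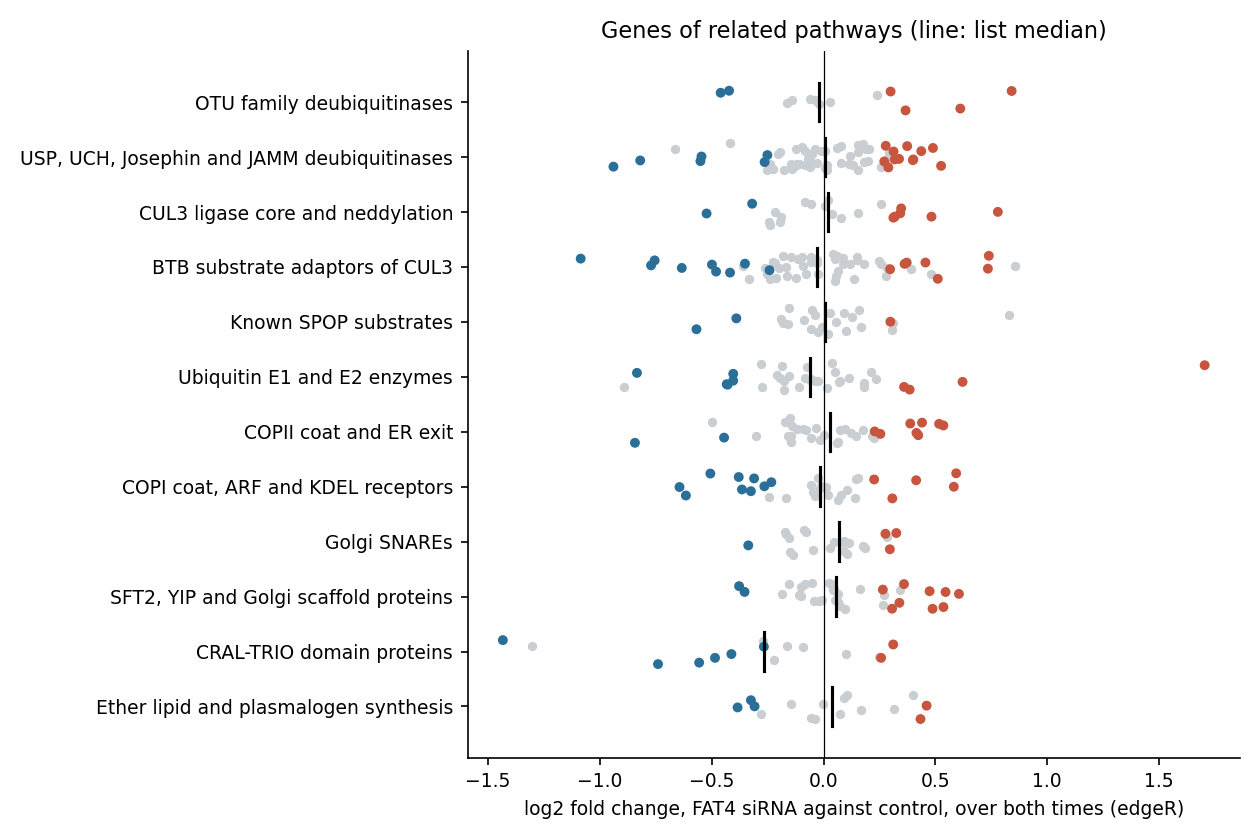
Log2 fold change of FAT4 siRNA against control over both times (edgeR) for the tested genes of each list (red: called higher, blue: called lower, grey: not called at an adjusted p of 0.05), with the list median as a black line. Calls go both ways in each list, and the median of the CRAL-TRIO list lies at -0.27.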

How the data were processed

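The files hold whole-number counts of reads per gene, deposited without normalization, 1 library per file. Per the submitters' processing notes, the tools were HTSeq, TopHat2, SAMtools and CASAVA 1.8.2, with the build hg19. The annotation, counting mode and strand setting were not given in the sources used here, so overlapping and near-identical genes are uncertain. The 5 counter rows of each file were left out (reads outside genes, 19.48% to 20.54% of assignable reads, and ambiguous ones, 0.772% to 0.804%).

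Counts were analysed with edgeR 4.0.16 in R 4.3.3 (TMM, filterByExpr at a minimum count of 10 and total of 15, 13712 genes). Its quasi-likelihood test had additive terms for siRNA and time over 4 libraries and was two-sided across all genes with Benjamini-Hochberg adjustment at 0.05. With 1 residual degree of freedom and infinite prior degrees of freedom, all genes share 1 dispersion trend, and p-values say nothing of the spread between cultures. On simulated counts with a fixed dispersion and no time effect, the fit recovered 75% of the smaller and 87% of the larger (2-fold) planted changes. Of its calls there, 3.57% were false. That dispersion was set, not measured between cultures, so the simulation does not check the calls made on these data. Log2 ratios used a pseudocount of 1 CPM and understate changes of low genes. Intervals are exact, Clopper-Pearson for the ratios and Poisson for the level of a single library. Like the floor of 3 counts, they cover counting error only. Alternatives were DESeq2 1.42.0, other scalings, filters and pseudocounts, models with 1 term, and offsets from splines on transcript GC content and length (95.4% of tested genes matched GENCODE 29). Transcript length, GC content, 3' UTRs and words rest on 1 transcript of that release per gene. Coding transcripts came first, then annotated principal ones, then the longest. No coordinates are printed, since that release uses another build. RefSeq (GRCh38.p14) gave gene order only. Members, lists, words and named genes were chosen with earlier results of these data known. Named are the members, FAT4, neighbours at 5 CPM or more, the nearest profiles, the genes next in order, the 2 called genes of each list with the largest change and 1 sign at both times, and a few fixed pathway genes. EWSR1, the genes with 2 copies of the word and those at least 2-fold higher were named after their values were seen. A few picks of these rules are not reported here.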

Additional observations from a re-analysis of the deposited data

Results flagged for a closer look

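The log2 change of SPOPL from 24 h to 48 h had opposite signs under the 2 siRNAs. It was 0.16 under control and -0.08 under the FAT4 siRNA, a difference of -0.25. The counting intervals of the SPOPL level at 24 h and 48 h overlapped under each siRNA. With the FAT4 siRNA they were 57.05 to 65.08 and 53.86 to 61.44 CPM, so a fall there is not set apart from counting error. With 1 library per siRNA and time the difference of -0.25 was not tested. The SPOPL ratios of FAT4 siRNA to control at both times had overlapping counting intervals, which is no test of that difference. No group held enough libraries for a search for samples far from the rest.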

How the results depend on the processing

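DESeq2 called 1244 genes for the siRNA effect in place of 3555 (600 higher and 644 lower in place of 1625 and 1930), 1176 for time in place of 3646, and 26 higher and 24 lower genes of the pathway lists in place of 63 and 49. With 1 term in the model, edgeR called 0 genes for the siRNA (0 higher, 0 lower, and 0 and 0 in the lists, with 1706 genes at an unadjusted p under 0.05) and 50 for time. With GC and length offsets 41 list genes were higher.

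The time change of OTUD6B was -0.33 with DESeq2 and -0.29 without the siRNA term, no longer called in either, and that of GOLT1B was -0.28 with the offsets, then called. That of SPOPL turned from 0.04 to -0.000268 without the siRNA term and to -0.067 with the offsets, never called. The other time changes kept direction and call. Under the alternatives 51 values of the members' siRNA ratios stayed within the counting interval and 9 did not. The latter were OTUD6B with the offsets (0.89 at 24 h, 1.11 at 48 h), SPOPL at 24 h (1.01) and GOLT1B (0.73 and 0.83). With 5 CPM added they were OTUD6B (1.12), TTPAL (1.11) and TMEM189 (1.11) at 48 h, and TMEM189 at 24 h (0.92). All kept their direction. Depth limits OTUD6A, GOLT1A, OTUD7A and TTPA, which had too few counts to test. No library could be left out, since 3 libraries leave no residual. No paired analysis was possible because the labels carry no replicate numbers, though the time term already matches the libraries of each time.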
